A study of Homo sapiens with 12 samples.

Results

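The genes described here code for the proteins that carry a Wnt signal between cells: 19 Wnt ligands, 10 Frizzled receptors, 5 co-receptors or alternative receptors (LRP5, LRP6, ROR1, ROR2 and RYK), the secretion proteins WLS and PORCN, 6 secreted Wnt binders (SFRP1, SFRP2, SFRP4, SFRP5, FRZB and WIF1) and 4 R-spondins. They were chosen by name, as 46 listed genes of these families, with earlier results of these data known. Each of 45 was measured by 1 probe set annotated to that gene alone, among 18404 genes so measured, and PORCN was not analysed here. RNA levels came from a single-colour array with probes along the whole transcript, and the values are log2 signals.

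The cells were 2102Ep and NTera-2, established human embryonal carcinoma lines, which are the malignant counterparts of pluripotent stem cells. The knock-down reduced SOX2, a transcription factor that such cells need in order to stay undifferentiated. The 4 groups were 2102Ep transfected with an siRNA against SOX2 (siSOX2), 2102Ep transfected with the scrambled Silencer Select Negative Control #1 (control), NTera-2 siSOX2 and NTera-2 control, with 3 arrays each and 12 in all. Replicates were described as biological. Every culture received the transfection mix for 6 hours and then spent 72 hours in serum-containing growth medium. 2102Ep was transfected with Lipofectamine 2000 and NTera-2 with Lipofectamine RNAiMAX, at different amounts of siRNA, so line, reagent and amount cannot be told apart. A single SOX2 siRNA was used, so its other effects cannot be told apart from those of SOX2 loss.

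Wnt proteins are lipid-modified by the acyltransferase PORCN and carried to the cell surface by WLS. At the receiving cell a Wnt binds a Frizzled together with LRP5 or LRP6, which keeps β-catenin from being degraded, or it binds a Frizzled with ROR1, ROR2 or RYK, which leads to signalling without β-catenin. SFRPs, FRZB and WIF1 bind Wnts outside the cell, and R-spondins, through LGR4, LGR5 and LGR6, remove the ubiquitin ligases RNF43 and ZNRF3 that take Frizzleds off the surface. In mouse embryos Wnt signalling is needed to form the primitive streak, and WNT3 is the ligand required there.

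SOX2 itself gave log2 signals of 9.17, 9.30 and 8.80 on the 2102Ep siSOX2 arrays, against 12.28, 12.21 and 12.20 on the 2102Ep control arrays. In NTera-2 it gave 11.92, 11.95 and 11.86 on the siSOX2 arrays, against 12.51, 12.52 and 12.63 on the control arrays. SOX2 was thus lower in both lines, by 3.14 ± 0.12 in 2102Ep and by 0.64 ± 0.12 in NTera-2 (log2, ± SE, n = 3 per group, limma adjusted p = 6.22e-12 and 0.00225). The fall was the larger one in 2102Ep by 2.49 ± 0.17 (adjusted p = 4.87e-08). Fewer cells expressing a gene and less of its RNA per cell cannot be told apart in such bulk samples. Of 12 measured embryonal carcinoma markers, 12 in both 2102Ep groups and 11 in both NTera-2 groups lay above the 95th percentile of 340 olfactory receptor genes, which are silent in most cells and serve here as a rough guide to dim signals (7.05 in 2102Ep siSOX2, 7.02 in 2102Ep control, 6.79 in NTera-2 siSOX2 and 6.89 in NTera-2 control). POU5F1 and NANOG had no probe set of their own among those used here.

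A gene is written as having risen or fallen by the strict call when limma's Benjamini-Hochberg adjusted p over all genes was at most 0.05, its unadjusted p at most 0.01 and its change at least 2-fold. In 2102Ep, 5 of the 45 Wnt genes rose (WNT5A, WNT8A, FZD2, WLS and RSPO3) and 1 fell (FZD7), while 1.15% of all genes rose and 0.826% fell. In NTera-2, 1 rose (WLS) and 1 fell (SFRP2), against a background of 0.31% of genes rising and 0.348% falling. With the adjusted p alone, 13 members passed in 2102Ep, 11 higher and 2 lower, where 12.7% of all genes passed. In NTera-2, 7 passed, 5 higher and 2 lower, where 4.94% of all genes passed. The 3 siSOX2 arrays did not overlap the 3 control arrays for 20 of 45 members in 2102Ep (25.2% of all genes) and for 18 of 45 in NTera-2 (21.3% of all genes). The median change of the 45 was 0.09 in 2102Ep and 0.09 in NTera-2 (log2), beside medians over all genes of -0.01 and 0.04. Most of the family moved little. The 32 that missed the adjusted p in 2102Ep lay between -0.25 and 0.30, and the 38 that missed it in NTera-2 between -0.21 and 0.44.

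**Figure D1:**
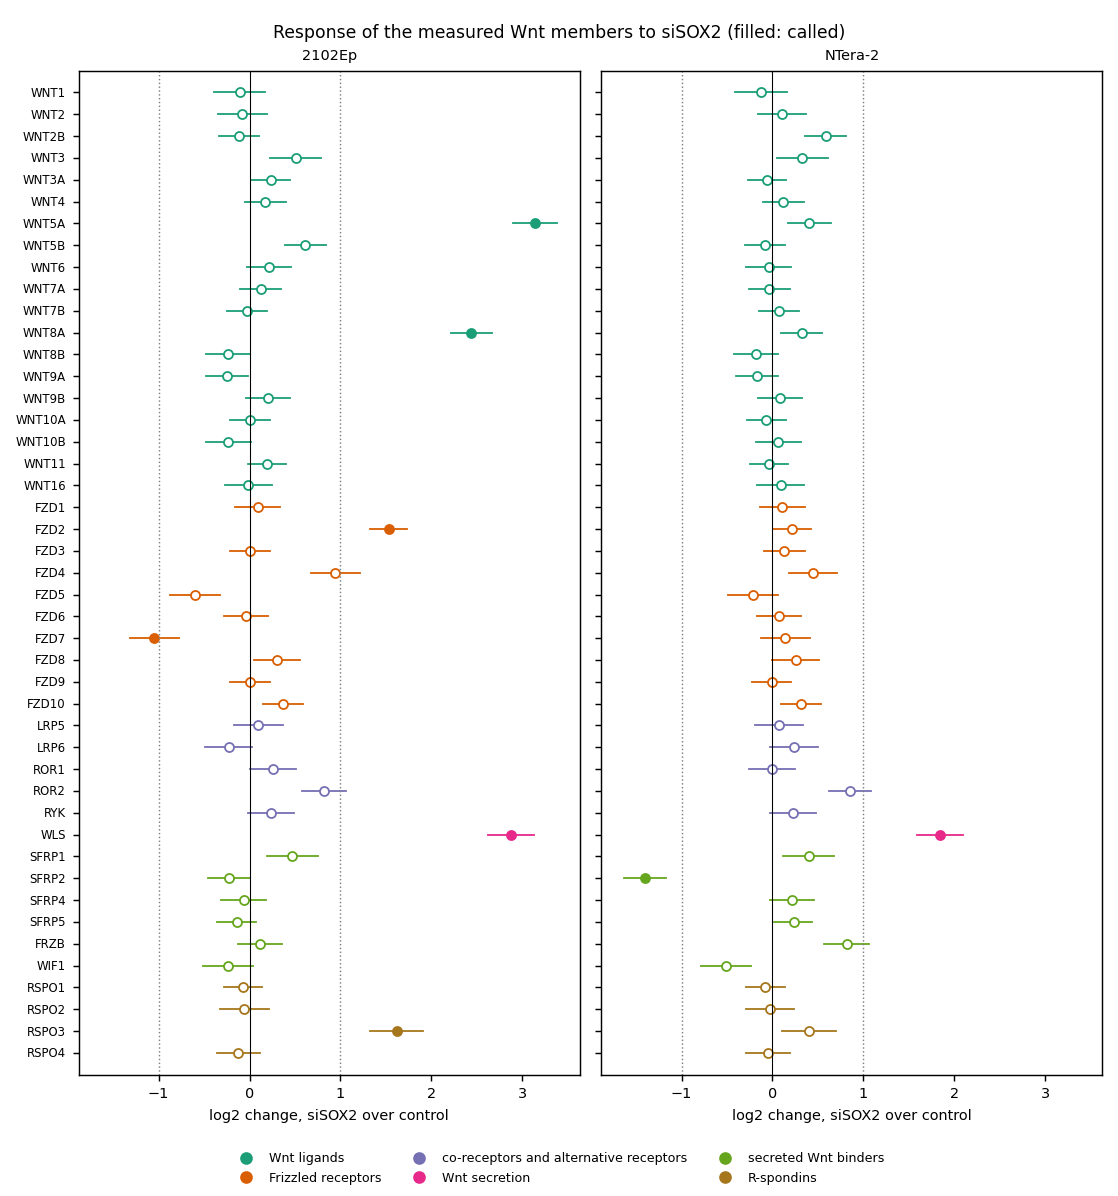
Change of each of the 45 measured Wnt genes on SOX2 knock-down (log2, siSOX2 over control), 2102Ep in the left panel and NTera-2 in the right. Points are the fitted changes, lines their 95% intervals, filled points those past the adjusted p and the 2-fold threshold, and dotted lines mark 2-fold. WNT5A (3.14), WLS (2.88) and WNT8A (2.44) lie farthest right in 2102Ep, and WLS (1.84) stands farthest right and SFRP2 (-1.40) farthest left in NTera-2.

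Windows around annotated starts (RefSeq, GRCh38.p14, 250 bases before to 50 after the start) are shown for the ligands and secretion gene that rose in 2102Ep, and for RSPO3, to put the regulatory sequence beside the values. The sequence table used here holds 2 windows for WNT5A, at chr3:55487257-55487556 and chr3:55481349-55481648 (minus strand), and both are given. The window of WNT8A lies at chr5:138083783-138084082 (plus strand), the first of 2 overlapping windows of WLS at chr1:68232474-68232773 (minus strand) and that of RSPO3 at chr6:127118421-127118720 (plus strand). The annotated WNT5A and WNT8A genes reach further upstream than these windows, so other starts of both were not examined here. All are written 5′ to 3′ on the gene's strand, and capitals mark the GC box GGGCGG, a site for SP/KLF factors, or its reverse complement CCGCCC.
WNT5A, upstream window: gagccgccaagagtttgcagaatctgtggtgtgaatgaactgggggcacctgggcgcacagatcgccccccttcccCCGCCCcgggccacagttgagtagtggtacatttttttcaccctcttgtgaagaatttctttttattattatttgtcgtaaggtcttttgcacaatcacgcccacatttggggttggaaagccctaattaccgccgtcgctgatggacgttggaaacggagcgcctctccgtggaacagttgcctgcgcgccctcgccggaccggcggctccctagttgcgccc
WNT5A, downstream window: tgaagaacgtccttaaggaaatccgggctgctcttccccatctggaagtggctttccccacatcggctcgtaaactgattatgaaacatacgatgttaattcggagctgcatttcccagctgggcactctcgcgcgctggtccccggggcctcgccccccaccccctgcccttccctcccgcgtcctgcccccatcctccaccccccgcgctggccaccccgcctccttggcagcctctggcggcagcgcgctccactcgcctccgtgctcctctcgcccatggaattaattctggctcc
WNT8A: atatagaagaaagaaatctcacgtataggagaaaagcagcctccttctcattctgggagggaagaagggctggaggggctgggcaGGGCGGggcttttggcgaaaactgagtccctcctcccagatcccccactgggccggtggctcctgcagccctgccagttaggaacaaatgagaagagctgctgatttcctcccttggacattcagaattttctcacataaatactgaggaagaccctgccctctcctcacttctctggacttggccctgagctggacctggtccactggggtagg
WLS: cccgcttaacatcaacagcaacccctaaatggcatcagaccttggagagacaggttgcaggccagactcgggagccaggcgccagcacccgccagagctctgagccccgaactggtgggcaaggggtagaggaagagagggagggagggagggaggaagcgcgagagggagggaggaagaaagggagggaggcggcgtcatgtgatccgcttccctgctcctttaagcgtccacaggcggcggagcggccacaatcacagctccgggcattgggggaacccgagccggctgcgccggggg
RSPO3: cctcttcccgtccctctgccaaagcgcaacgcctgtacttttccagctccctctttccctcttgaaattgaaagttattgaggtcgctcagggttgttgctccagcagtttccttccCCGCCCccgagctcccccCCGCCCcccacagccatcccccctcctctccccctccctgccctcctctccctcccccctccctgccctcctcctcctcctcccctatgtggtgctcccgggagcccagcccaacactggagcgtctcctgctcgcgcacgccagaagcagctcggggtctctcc

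The windows held 1 GC box in the upstream WNT5A window, none in the downstream one, 1 in WNT8A, none in WLS and 2 in RSPO3, and their GC content was 56.3%, 63.7%, 54.7%, 65.3% and 65.3%. Windows were found for 35 of the 46 members, 40 in all, and 30 of the 40 held GGGCGG on either strand (75%), where 45% of all 35116 windows did. The core letters of TCF/LEF sites, CTTTGA, were in 1 of the 40, that of PORCN (12.9% of all windows). The SOX cores were searched as CATTGT, present in the windows of WNT1 and WNT2B (10.8% of all windows), and as CTTTGT, present in those of FZD1, ROR2, WNT3 and WNT8B (16.1% of all windows). CTTTGA and CTTTGT share every letter but the last, and both strands were read. None of these 3 cores was in the windows printed above. A match is a run of letters and no site, and an absent match says nothing of binding elsewhere.

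Among the ligands the 2102Ep response was carried by WNT5A and WNT8A. WNT5A, the best known ligand of signalling without β-catenin, gave 9.47, 9.44 and 9.52 on the 2102Ep siSOX2 arrays, against 6.46, 6.06 and 6.49 on the 2102Ep control arrays. Its control arrays lay below the olfactory guide and every siSOX2 array lay well above both. The rise was 3.14 ± 0.11 on the log2 scale (95% interval 2.90 to 3.38), or 8.82-fold (limma adjusted p = 5.03e-12). The NTera-2 siSOX2 arrays gave 8.84, 8.76 and 8.85, against 8.37, 8.40 and 8.45 on the NTera-2 control arrays. The NTera-2 arrays did not overlap either, but the difference was 0.41 ± 0.11 and under 2-fold (adjusted p = 0.0456). The 2102Ep response exceeded that in NTera-2 by 2.73 ± 0.16 (95% interval 2.40 to 3.07, adjusted p = 1.62e-08).

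WNT8A, which acts through β-catenin and is expressed at the primitive streak in mouse, gave 9.29, 9.22 and 9.36 on the 2102Ep siSOX2 arrays, against 6.69, 6.86 and 6.99 on the 2102Ep control arrays. The groups lay far apart, and the control mean was under the guide. The rise was 2.44 ± 0.11 (95% interval 2.22 to 2.67, 5.43-fold, adjusted p = 3.2e-11). In NTera-2 the gene gave 6.96, 7.11 and 7.20 on the siSOX2 arrays, against 6.81, 6.72 and 6.77 on the control arrays, a difference of 0.32 ± 0.11 that did not pass (adjusted p = 0.107). The responses of the lines differed by 2.12 ± 0.15 (adjusted p = 1.04e-07).

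WNT3, the streak ligand of the mouse, was already bright in 2102Ep. It gave 10.64, 10.72 and 10.48 on the siSOX2 arrays, against 10.32, 10.02 and 9.99 on the control arrays, higher by 0.51 ± 0.13 and under 2-fold (adjusted p = 0.0165). NTera-2 had 8.05, 7.88 and 8.31 on the siSOX2 arrays, against 7.78, 7.55 and 7.91 on the control arrays, and here the arrays overlapped (0.33 ± 0.13, adjusted p = 0.229). The 2 responses differed by 0.18, with a 95% interval of -0.22 to 0.58, so no difference between the lines was shown for it. WNT5B, a close relative of WNT5A, was higher by 0.61 in 2102Ep siSOX2 (adjusted p = 0.000548), and WNT2B was higher by 0.59 in NTera-2 siSOX2 (adjusted p = 0.00222). The responses of the lines differed for both of these ligands, by 0.70 for WNT5B (adjusted p = 0.00882) and by -0.71 for WNT2B (adjusted p = 0.00785). In 2102Ep the 15 ligands other than WNT5A, WNT8A, WNT3 and WNT5B lay between -0.25 and 0.23, and none of them passed. WNT2, WNT7B, WNT8B and WNT16 stayed under the guide in all 4 groups.

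**Figure D2:**
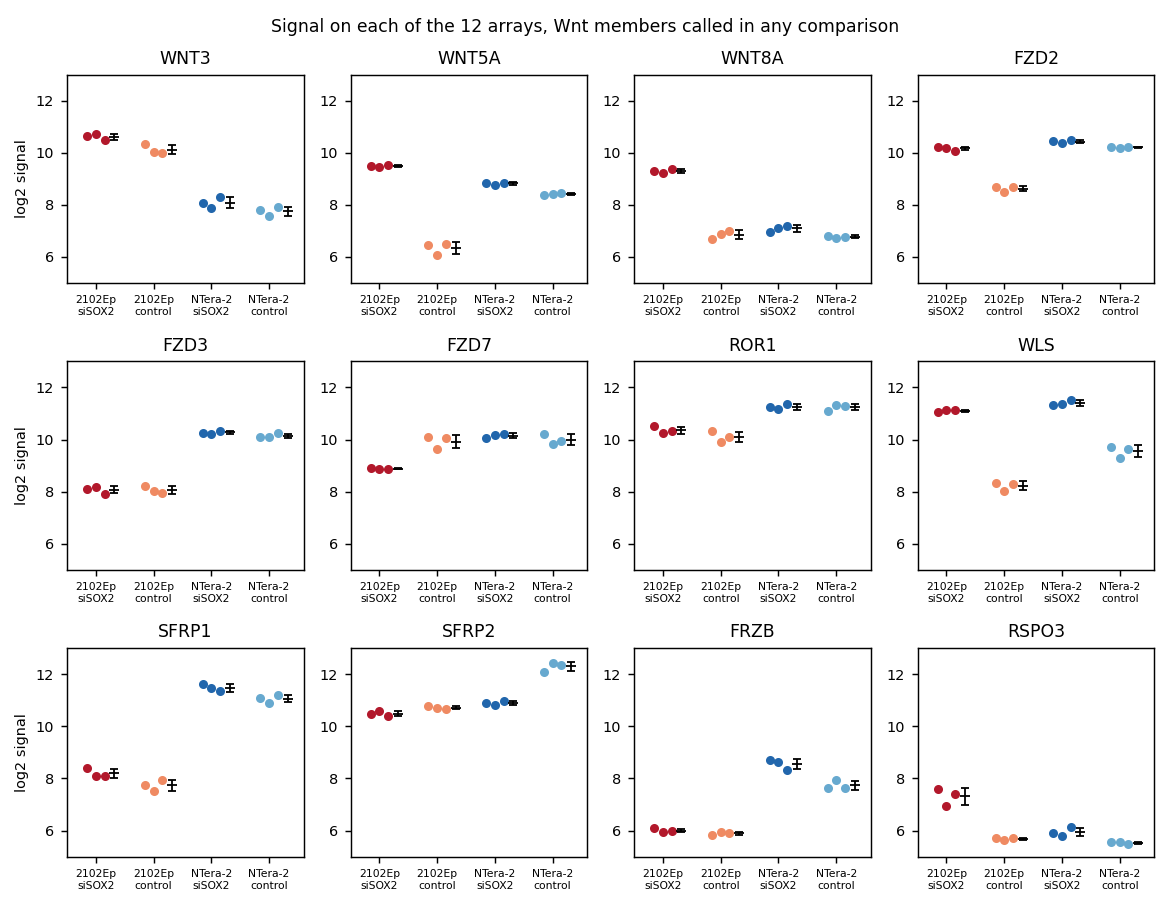
Log2 signal of the 12 Wnt genes called in at least 1 comparison, on every array, with the groups in the order 2102Ep siSOX2, 2102Ep control, NTera-2 siSOX2 and NTera-2 control. Points are arrays and bars the mean ± SD of 3. WLS lies between 11.05 and 11.51 in the siSOX2 arrays of both lines, above every control array.

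WLS was the member that rose in both lines. It gave 11.05, 11.12 and 11.12 on the 2102Ep siSOX2 arrays, against 8.33, 8.03 and 8.30 on the 2102Ep control arrays. The rise was 2.88 ± 0.12 (95% interval 2.62 to 3.13), or 7.34-fold (adjusted p = 2.43e-11). In NTera-2 it gave 11.32, 11.36 and 11.51 on the siSOX2 arrays, against 9.72, 9.29 and 9.65 on the control arrays. The rise there was 1.84 ± 0.12 (95% interval 1.59 to 2.10), or 3.59-fold (adjusted p = 6.42e-08). No control array reached a siSOX2 array in either line. The 2102Ep response was the larger by 1.03 ± 0.17 (95% interval 0.66 to 1.40, adjusted p = 0.00119). That difference is close to the 2-fold threshold and fell below it without 2102Ep control replicate 2 (0.93), NTera-2 control replicate 1 (0.95), NTera-2 control replicate 3 (0.98) or NTera-2 siSOX2 replicate 1 (0.99).

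The Frizzleds moved in both directions in 2102Ep. FZD2, a receptor for WNT5A among others, gave 10.22, 10.16 and 10.08 on the 2102Ep siSOX2 arrays, against 8.69, 8.50 and 8.68 on the 2102Ep control arrays. It rose by 1.53 ± 0.10 (95% interval 1.33 to 1.73, 2.89-fold, adjusted p = 4.45e-09), with no overlap. NTera-2 had 10.43, 10.37 and 10.47 on the siSOX2 arrays, against 10.21, 10.19 and 10.23 on the control arrays, a difference of 0.21 ± 0.10 that did not pass (adjusted p = 0.302). The siSOX2 arrays of 2102Ep thus reached about the level that NTera-2 showed in both of its groups. The responses differed by 1.32 ± 0.14 (adjusted p = 8.22e-06).

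FZD7, a Frizzled abundant in human pluripotent cells, was the member that fell in 2102Ep. It gave 8.91, 8.87 and 8.85 on the siSOX2 arrays, against 10.08, 9.64 and 10.05 on the control arrays, so the groups did not overlap. The change was -1.05 ± 0.13 (95% interval -1.31 to -0.78, adjusted p = 1.48e-05). Without 2102Ep control replicate 1 (-0.97) or 3 (-0.98) the fall was under 2-fold. On the NTera-2 arrays FZD7 gave 10.05, 10.16 and 10.22 on the siSOX2 arrays, against 10.23, 9.83 and 9.96 on the control arrays, which overlapped (0.14 ± 0.13, adjusted p = 0.712). The responses differed by -1.19 ± 0.18 (adjusted p = 0.000441).

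FZD4 came nearest to the threshold from below. It gave 8.12, 7.89 and 7.86 on the 2102Ep siSOX2 arrays, against 6.95, 6.79 and 7.31 on the 2102Ep control arrays, higher by 0.94 (adjusted p = 3.81e-05), and without 2102Ep control replicate 3 it passed the 2-fold threshold (1.09). Its NTera-2 arrays gave 7.59, 7.55 and 7.63 with siSOX2, against 7.18, 7.04 and 7.22 in the control, and the difference of 0.44 just missed (adjusted p = 0.0514). FZD5 was lower by the adjusted p in 2102Ep, at -0.60 (adjusted p = 0.00387), and FZD10 was higher by 0.37 (adjusted p = 0.024). No Frizzled passed in NTera-2, where the 10 lay between -0.21 and 0.44. An unadjusted p under 0.05 was reached by 4 of them, and the share of all genes reaching it was not counted here. Counts of small Frizzled changes moved with the scaling: 7 of 10 were above 0 in 2102Ep in the deposited values and 5 of 10 after either median centring or a second quantile normalization.

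ROR2, a receptor tyrosine kinase-like protein that binds WNT5A, was higher in both lines, under 2-fold. It gave 8.92, 8.63 and 8.85 on the 2102Ep siSOX2 arrays, against 7.99, 7.87 and 8.07 on the 2102Ep control arrays. In NTera-2 it gave 8.99, 9.09 and 9.33 on the siSOX2 arrays, against 8.30, 8.24 and 8.30 on the control arrays. The differences were 0.82 (adjusted p = 5.45e-05) and 0.86 (adjusted p = 0.000114), without overlap in either line. They differed from each other by -0.03, with a 95% interval of -0.37 to 0.30. The β-catenin co-receptors did not pass in either line: LRP5 differed by 0.10 in 2102Ep and 0.08 in NTera-2, and LRP6 by -0.23 and 0.24. RYK, a pseudokinase Wnt receptor, differed by 0.23 in 2102Ep and 0.23 in NTera-2, and ROR1 by 0.26 in 2102Ep and -0.00 in NTera-2 (none passed).

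SFRP2, a secreted antagonist, was the member that fell in NTera-2. It gave 10.91, 10.82 and 10.98 on the NTera-2 siSOX2 arrays, against 12.09, 12.45 and 12.36 on the NTera-2 control arrays, with more than a log2 unit between the groups. The change was -1.40 ± 0.11 (95% interval -1.63 to -1.17, 2.64-fold lower, adjusted p = 3.6e-07). In 2102Ep it gave 10.47, 10.59 and 10.39 on the siSOX2 arrays, against 10.77, 10.70 and 10.65 on the control arrays. These did not overlap, but the difference of -0.23 ± 0.11 did not pass (adjusted p = 0.231). The responses differed by 1.17 ± 0.16 (2102Ep minus NTera-2, adjusted p = 0.000121).

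FRZB, also known as SFRP3, was under the guide in 2102Ep, at 6.08, 5.95 and 5.98 on the siSOX2 arrays, against 5.83, 5.95 and 5.89 on the control arrays. In NTera-2 it gave 8.69, 8.62 and 8.33 on the siSOX2 arrays, against 7.63, 7.93 and 7.62 on the control arrays, higher by 0.82 ± 0.12 (adjusted p = 0.000242) and so in the opposite direction to SFRP2. SFRP1, a further antagonist of this family, gave 8.42, 8.11 and 8.08 on the 2102Ep siSOX2 arrays, against 7.74, 7.51 and 7.95 on the 2102Ep control arrays (0.47 ± 0.13, adjusted p = 0.0237). In NTera-2 it gave 11.62, 11.46 and 11.34 on the siSOX2 arrays, against 11.09, 10.91 and 11.21 on the control arrays (0.40, adjusted p = 0.106). WIF1, a Wnt binder unrelated to the SFRPs, was lower by the adjusted p in NTera-2, at -0.51 (adjusted p = 0.0282), but stayed under the guide in all groups, as did SFRP4.

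Of the R-spondins, RSPO3 alone was called. It gave 7.60, 6.93 and 7.39 on the 2102Ep siSOX2 arrays, against 5.70, 5.64 and 5.73 on the 2102Ep control arrays. The siSOX2 mean was the one group mean of this gene above the guide. The rise was 1.62 ± 0.14 (95% interval 1.32 to 1.91, 3.07-fold, adjusted p = 2.63e-07). NTera-2 had 5.89, 5.80 and 6.12 on the siSOX2 arrays, against 5.54, 5.56 and 5.50 on the control arrays. The NTera-2 groups did not overlap, but all 6 arrays were dim and the difference of 0.40 ± 0.14 did not pass (adjusted p = 0.131). The responses differed by 1.21 ± 0.20 (adjusted p = 0.00082). RSPO1, RSPO2 and RSPO4 lay between -0.12 and -0.06 in 2102Ep.

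The test of the difference between the 2102Ep and NTera-2 responses called 7 members, 6 with the higher value in 2102Ep (WNT5A, WNT8A, FZD2, WLS, SFRP2 and RSPO3) and 1 with the lower (FZD7). Over all genes it called 0.989% higher and 0.668% lower. By the adjusted p alone 10 members passed, where 5.2% of all genes did, the further ones being WNT2B, WNT5B and FRZB (-0.70, adjusted p = 0.0154). The SFRP2 value is positive because SFRP2 fell in NTera-2. The other 35 members lay between -0.47 and 0.50.

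**Figure D3:**
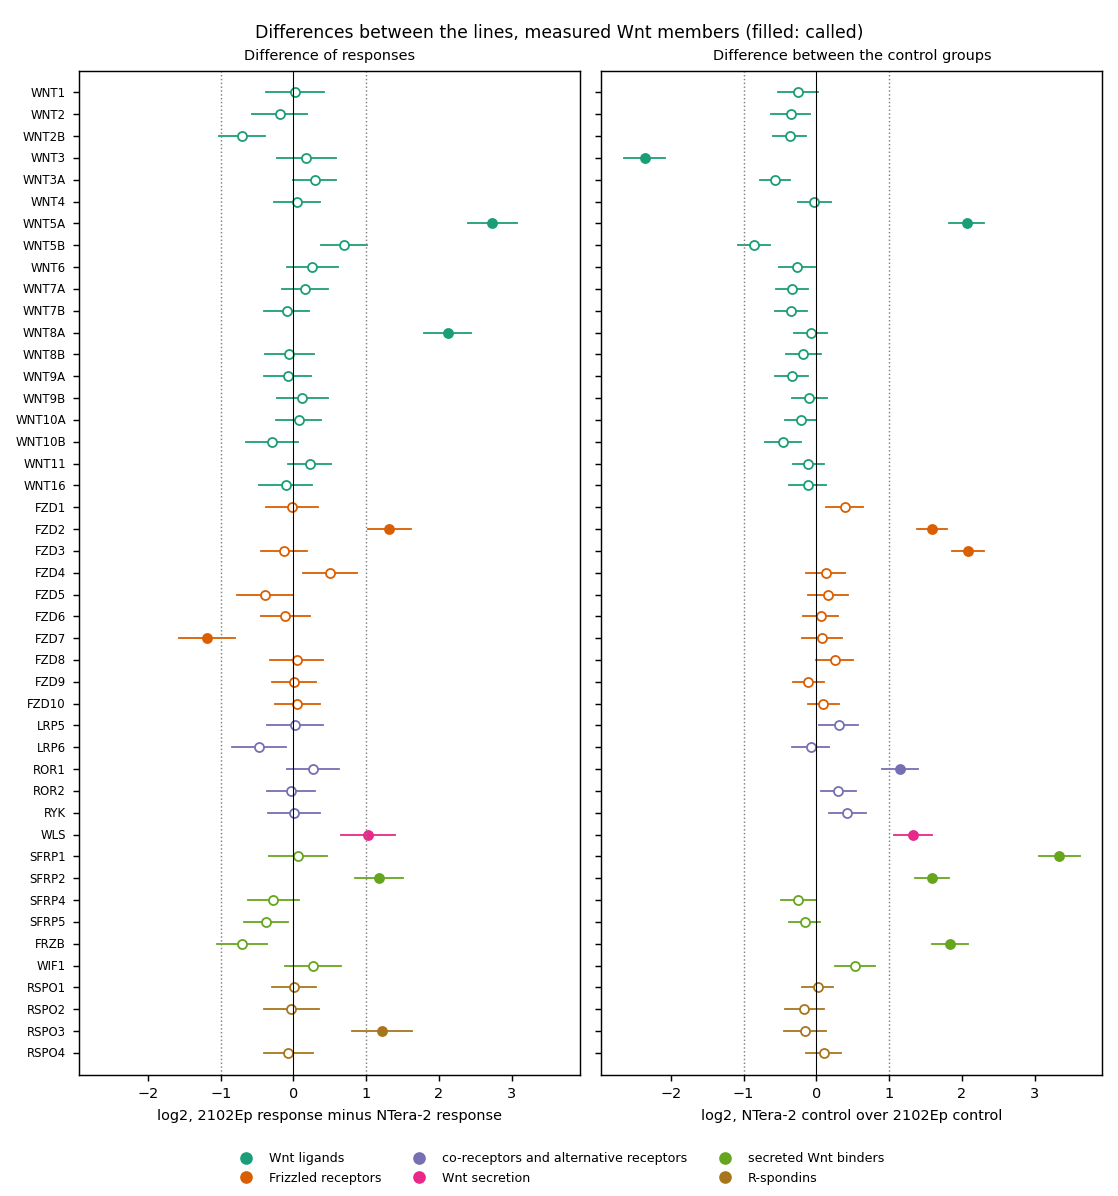
Left panel, response in 2102Ep minus response in NTera-2 for the 45 Wnt genes (log2). Right panel, NTera-2 control over 2102Ep control (log2). Points are fitted values, lines 95% intervals, filled points those called, and dotted lines mark 2-fold. WNT5A (2.73) and WNT8A (2.12) lie farthest right in the left panel, and SFRP1 (3.34) farthest right and WNT3 (-2.36) farthest left in the right panel.

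The control groups compare the lines under the non-targeting siRNA, harvested at the same time as the siSOX2 cultures. Between them, 8 members were higher in NTera-2 (WNT5A, FZD2, FZD3, ROR1, WLS, SFRP1, SFRP2 and FRZB) and 1 was lower (WNT3), where 4.49% of all genes were called higher and 3.28% lower. By the adjusted p alone 21 passed, 12 higher and 9 lower, where 42.4% of all genes passed. The arrays of the 2 control groups did not overlap for 26 of 45 members, or 57.8%, near the 50.5% of all genes.

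Of the 19 ligands, 10 passed the adjusted p, 9 lower in NTera-2 control and 1 higher, where 42.4% of all genes passed in either direction. Over all genes the directions were near even: without the 2-fold threshold, 3493 of the 6900 genes called were higher in NTera-2 control. Counted without a test, 18 were below 0 in NTera-2 control against 2102Ep control, with a median of -0.27 beside -0.06 for all genes, and 17 or 18 were below 0 under the other scalings. The 9 that passed lower were WNT3, called at -2.36 ± 0.13 (5.13-fold lower, adjusted p = 4.11e-10), WNT5B (-0.86), WNT3A (-0.57), WNT10B (-0.46), WNT2B (-0.37), WNT2 (-0.35), WNT7B (-0.35), WNT9A (-0.34) and WNT7A (-0.33). WNT2 and WNT7B are dim in both lines. WNT5A ran the other way, higher in NTera-2 control by 2.07 ± 0.11 (4.2-fold, adjusted p = 2.55e-10). WNT8A did not differ detectably (-0.08, adjusted p = 0.579). Among dim genes, the median of the 340 olfactory receptor genes was also lower in NTera-2 control, at 5.32 against 5.45 in 2102Ep control. Its part in the small ligand differences was not tested.

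Of the 10 Frizzleds, 3 passed the adjusted p higher in NTera-2 control (FZD1, FZD2 and FZD3), where 42.4% of all genes passed in either direction. The other 7 lay between -0.11 and 0.26 without passing. The median of the 10 was 0.15, beside -0.06 for all genes. FZD3, a receptor of planar polarity and axon guidance in mouse, gave 10.11, 10.08 and 10.24 on the NTera-2 control arrays, against 8.21, 8.02 and 7.94 on the 2102Ep control arrays. It was higher by 2.09 ± 0.11 (4.25-fold, adjusted p = 1.16e-10), and it did not pass on knock-down (0.01 in 2102Ep and 0.13 in NTera-2). FZD3 gave 8.11, 8.17 and 7.92 on the 2102Ep siSOX2 arrays and 10.26, 10.23 and 10.34 on the NTera-2 siSOX2 arrays, so the lines stood apart with either siRNA. FZD2 was higher by 1.59 ± 0.10 (adjusted p = 9.74e-10), and ROR1 by 1.15 ± 0.12 (2.22-fold, adjusted p = 6.63e-07). ROR1 gave 11.11, 11.34 and 11.30 on the NTera-2 control arrays, against 10.31, 9.91 and 10.08 on the 2102Ep control arrays. With siSOX2 it gave 10.51, 10.25 and 10.33 in 2102Ep and 11.23, 11.16 and 11.36 in NTera-2. FZD1 (0.39), ROR2 (0.30) and RYK (0.42) passed the adjusted p in the same direction.

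The widest gap among the 45 was that of SFRP1, a secreted binder. It was higher in NTera-2 control by 3.34 ± 0.13 (10.1-fold, adjusted p = 6.24e-12), FRZB by 1.84 ± 0.12 (3.58-fold, adjusted p = 1.79e-09) and SFRP2 by 1.59 ± 0.11 (adjusted p = 4.87e-09). WLS was higher by 1.33 ± 0.12 (2.52-fold, adjusted p = 1.62e-07), and WIF1 by 0.53, both of its levels being dim. All 3 NTera-2 control arrays of SFRP1, at 10.91 to 11.21, lay above all 3 2102Ep control arrays, at 7.51 to 7.95.

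Some levels in the siSOX2 groups were set side by side. WLS averaged 11.10 in 2102Ep siSOX2 and 11.40 in NTera-2 siSOX2, and FZD2 10.16 and 10.42. WNT5A went past the other line, at 9.44 to 9.52 in 2102Ep siSOX2 and 8.76 to 8.85 in NTera-2 siSOX2. These siSOX2 levels were compared as values only.

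Other genes of the pathway were counted from lists by role, also chosen with earlier results of these data known. The counts stand beside 1.15% of all genes called higher and 0.826% lower in 2102Ep and 0.31% higher and 0.348% lower in NTera-2. For counts at an unadjusted p under 0.05 the share of all genes was not counted. Of 5 R-spondin receptors and ligases, LGR5 was called higher in both lines (4.84 in 2102Ep and 1.18 in NTera-2), and the others were not called on knock-down. LGR4 was lower by the adjusted p in NTera-2 (-0.72, adjusted p = 0.000113) and RNF43 higher by it in 2102Ep (0.84, adjusted p = 0.000244). Of 15 other inhibitors, DKK1 was called higher in both lines (4.27 in 2102Ep and 2.77 in NTera-2). SHISA3 was called lower in both (-1.46 in 2102Ep and -2.83 in NTera-2). By limma none of 13 further Wnt partners was called on knock-down, though 5 had an unadjusted p under 0.05 in each line. By the adjusted p alone 3 passed in 2102Ep (GPC4 and GPC6 higher, TMED5 lower), where 12.7% of all genes passed. In NTera-2, 2 passed higher (ADGRA2 and the dim MUSK), where 4.94% of all genes passed. The cytoplasmic relay, 15 of 16 genes measured, gave 1 call in 2102Ep, AMER1 (1.01), and none in NTera-2, where 1 had an unadjusted p under 0.05. The AMER1 call sat at the 2-fold threshold. AMER1 gave 9.25, 9.21 and 8.94 on the 2102Ep siSOX2 arrays, against 8.43, 7.67 and 8.28 on the 2102Ep control arrays. CTNNB1, which codes for β-catenin itself, differed by 0.19 in 2102Ep and 0.16 in NTera-2 without passing.

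In the nucleus, 10 of 11 genes were measured. LEF1, a transcription partner of β-catenin, was called higher in both lines (3.70 in 2102Ep and 1.53 in NTera-2), and TCF7L1, a family member that chiefly represses, was called lower in 2102Ep (-1.49). Its NTera-2 change was -0.15, and the responses of the lines differed by -1.34 (adjusted p = 0.00176). TCF7L1 gave 10.12, 10.06 and 9.81 on the 2102Ep siSOX2 arrays, against 11.48, 11.14 and 11.84 on the 2102Ep control arrays. Of 15 target genes, 6 rose and 1 fell in 2102Ep, where 1.15% of all genes rose and 0.826% fell. None was called in NTera-2, where 3 passed the adjusted p alone and 5 had an unadjusted p under 0.05. TBXT, MSGN1, TBX6 and CDX2 of this list also stand among the cell type markers given below. Among them NKD1, a feedback inhibitor, rose by 2.28 and SP5, a transcriptional target in many tissues, by 1.31, whereas AXIN2, the most widely used target, differed by 0.22 in 2102Ep (adjusted p = 0.243) and 0.01 in NTera-2. The other called targets in 2102Ep were TBXT (2.98), CDX2 (1.17), MSGN1 (4.28) and MSX2 (2.27), higher, and SP8 (-1.10), lower. The responses of the lines differed for NKD1 by 1.98 (adjusted p = 1.72e-06). The median of the target list was 0.61 in 2102Ep and 0.04 in NTera-2, beside -0.01 and 0.04 over all genes. Of 11 planar polarity core genes, ANKRD6 was called in 2102Ep (1.24) and none in NTera-2, where 3 had an unadjusted p under 0.05. By the adjusted p alone VANGL1 and PRICKLE2 were also higher in 2102Ep, and PRICKLE1 was lower (-0.98). In NTera-2 PRICKLE2 (0.99) and ANKRD6 were higher by it. Over all genes 12.7% passed it in 2102Ep and 4.94% in NTera-2. The share of all genes with an unadjusted p under 0.05 was not counted.

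**Figure D4:**
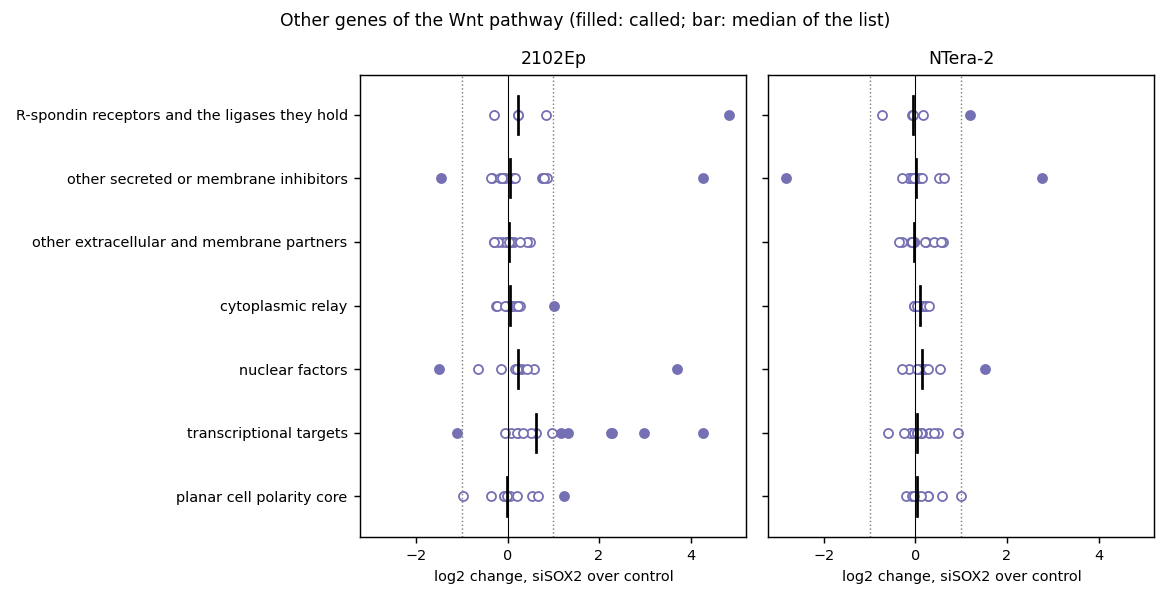
Change on SOX2 knock-down (log2, siSOX2 over control) of the genes in 7 lists of other Wnt pathway genes, in 2102Ep and in NTera-2. Each point is a gene and each bar the median of its list. The target list has the highest median in 2102Ep (0.61), and its NTera-2 median is 0.04.

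Markers of cell types were counted as well, and not every list moved on knock-down. Their calls stand beside 1.15% of all genes called higher and 0.826% lower in 2102Ep, and 0.31% higher and 0.348% lower in NTera-2. For 12 early mesoderm markers the summed linear signal was 17961 to 18935 in 2102Ep siSOX2, against 3101 to 3358 in 2102Ep control, with 7 of 12 called higher. It was 4230 to 4764 in NTera-2 siSOX2, against 2846 to 3199 in NTera-2 control, with 4 of 12 called higher. By the adjusted p alone 5 were higher and 1 lower in NTera-2, where 4.94% of all genes passed. The lower one was KDR (-0.70), and the median change of the 12 in NTera-2 was 0.29. All 12 were above the guide in both siSOX2 groups and 10 in both control groups. For 10 trophoblast and amnion markers the sum was 5025 to 5125 in 2102Ep siSOX2, against 2908 to 3146 in 2102Ep control (4 higher, 1 lower). It was 2387 to 2718 in NTera-2 siSOX2, against 1995 to 2107 in NTera-2 control (none called, 4 with an unadjusted p under 0.05). The share of all genes with such a p was not counted. By the adjusted p alone 2 of these markers were higher in NTera-2, GATA3 and TFAP2C. In 2102Ep 6 passed it higher and 2 lower, TFAP2C among the lower ones. The embryonal carcinoma markers summed to 20177 to 21704 in 2102Ep siSOX2, against 28160 to 33425 in 2102Ep control, with 5 of 12 called lower and a median change of -0.71. In NTera-2 the sums overlapped (22337 to 26324 in siSOX2, 25155 to 32806 in control), while 2 were called lower (CRIPTO and PRDM14), 6 passed the adjusted p lower and the median change was -0.44. For 8 neural ectoderm markers the sum was 3598 to 4001 in NTera-2 control, against 1375 to 1385 in 2102Ep control, and 4193 to 4265 in NTera-2 siSOX2 against 1250 to 1389 in 2102Ep siSOX2. On knock-down in 2102Ep, MAP2 was called higher (1.20) though under the guide in both groups, and 6 of the 8 lay below 0. None of the 8 was called on knock-down in NTera-2. Between the controls OTX2 (2.06) and MAP2 (3.02) were called higher in NTera-2, while 4 of the 8 lay above 0 and 4 below, 2 passed the adjusted p lower and the median was 0.02. For 10 fibroblast markers, of which 5 exceeded the guide in every group, the sum was 3069 to 3556 in 2102Ep siSOX2, against 3178 to 3680 in 2102Ep control, and 2789 to 3044 in NTera-2 siSOX2, against 3749 to 4094 in NTera-2 control. In NTera-2 the lower sum went with THY1 (-0.86), whose mean log2 signal was 11.44 in control and 10.58 in siSOX2. POSTN was called lower (-1.69) but was under the guide in all 4 groups, so it adds little to a linear sum. By contrast 7 of the 10 lay above 0, 3 passed the adjusted p higher (COL1A2, LUM and PDGFRB) and the median was 0.19. Their part in the Wnt gene results was not tested.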

How the data were processed

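RNA of 12 cultures was hybridised to the Affymetrix Human Gene 1.0 ST array. The deposited log2 signals were made by the authors with robust multi-array averaging in the manufacturer's software, and the sources used here give neither its version nor the log base. A base of 2 was read from the span of the values, 1.57 to 15.0. The submitters' processing notes name limma. Such values compress dim signals, so fold changes of dim genes are understated.

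The platform annotation gave 1 gene to 19158 of 32321 probe sets, several to 1388 and none to 11775. Only the first were used. A gene with several of them (637) was represented by its brightest one, averaged over the 12 arrays, and no Wnt member had several. Of 18404 genes, 18376 matched RefSeq (GRCh38.p14). Array medians were 7.43 to 7.58. Arrays correlated at 0.983 to 0.996 within groups and 0.930 to 0.991 between groups. Precision is limited by how many arrays there are (median SE in 2102Ep 0.121).

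A mean per group was fitted to all genes and 12 arrays with limma 3.58.1 in R 4.3.3 (lmFit, contrasts and eBayes), and 4 comparisons were drawn from that fit. The code was tested on simulated data. Exact permutation of 3 against 3 arrays cannot give p below 0.1 and was not used. A gene was called at adjusted p of at most 0.05, p of at most 0.01 and at least 2-fold. Members called in any comparison were named with every array's value, members passing the adjusted p alone with their change, and others by range, apart from LRP5 and LRP6, named for their role after their values were seen. The members and lists were chosen with earlier results of these data known. Alternatives left out each array, used a replicate block, fitted only the groups compared, filtered dim genes, rescaled the arrays, averaged probe sets, moderated with a trend and dropped the fold threshold. Figures were drawn with matplotlib 3.10.9.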

Additional observations from a re-analysis of the deposited data

Results flagged for a closer look

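Responses to SOX2 knock-down differed between 2102Ep and NTera-2 for 7 Wnt genes, each by the test of the difference itself in limma's fit over all genes (2102Ep response minus NTera-2 response, log2). The difference was 2.73 for WNT5A (adjusted p = 1.62e-08), 2.12 for WNT8A (adjusted p = 1.04e-07), 1.32 for FZD2 (adjusted p = 8.22e-06), 1.21 for RSPO3 (adjusted p = 0.00082), 1.17 for SFRP2 (adjusted p = 0.000121), 1.03 for WLS (adjusted p = 0.00119) and -1.19 for FZD7 (adjusted p = 0.000441). The fall of SOX2 RNA on the arrays was larger in 2102Ep, and the lines differed in reagent and siRNA amount. SOX2 protein was not analysed here, and the part of these differences in the results was not tested. No test for a single deviating array was made, since each group holds 3.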

How the results depend on the processing

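Without the 2-fold threshold, the count of called members was 13 in 2102Ep (11 higher, 2 lower) in place of 6 (12.7% of all genes), 7 in NTera-2 (5 higher, 2 lower) in place of 2 (4.94% of all genes), 10 for the difference of responses in place of 7 (5.2% of all genes), and 19 between the control groups (11 higher, 8 lower) in place of 9 (37.5% of all genes). Leaving out each array in turn gave 5 to 6 members in 2102Ep, 2 to 2 in NTera-2, 6 to 7 for the difference of responses and 9 to 9 between the control groups. The calls lost were FZD7 in 2102Ep, without 2102Ep control replicate 1 or 3, and the difference of responses of WLS, without the 4 arrays named in the report. FZD4 was gained in 2102Ep, without 2102Ep control replicate 3. Labels number the replicates alike in each group. Same-numbered siSOX2 and control arrays correlated at 0.0652 to 0.179 in their deviations in 2102Ep and at -0.249 to 0.136 in NTera-2. The highest value of each siSOX2 array with a different-numbered control array was 0.147 to 0.295 in 2102Ep and 0.0895 to 0.343 in NTera-2. For NTera-2 replicate 3 the same number gave the higher value (0.136 against 0.0895), and for the other siSOX2 arrays a different number did. Taking the highest different-numbered value makes the comparison uneven, and 3 arrays a group cannot settle whether the samples were paired. With the replicate block the same members were called (6, 2, 7 and 9 in the 4 comparisons), and 365, 121, 307 and 1429 of all genes. Fitting only the groups compared, filtering dim genes, median centring, a second quantile normalization, averaging probe sets and a moderated trend also kept the same member calls, and no called member reversed under any alternative. Limits of the data are 3 arrays a group, 1 siRNA, a modest fall of SOX2 RNA in NTera-2 and dim probe sets. Of the 45 members, 7 were above the olfactory guide in no group, and a change in them may not be detectable here.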
